A study of Mus musculus with 6 samples.

Results

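Wild-type A20 cells were compared with A20 cells that carried the TETact-v3 activator and an sgRNA against the Cd4 promoter. Members were chosen by their sample labels, and the comparison takes 4 libraries of 6 in all, 2 of Cd4 sgRNA cells and 2 of wild-type cells. A20 is a B cell lymphoma line from BALB/C mice. The wild-type cells had received no construct. The Cd4 sgRNA cells were transduced with lentiviral vectors for dCas9 with a SunTag array, the TET1 catalytic domain that binds the array, the p65-hsf1 activator recruited by MS2 loops, and the sgRNA, and were sorted. The remaining 2 libraries came from TETact-v3 cells that carried a control sgRNA without a target, and their values are given for some genes only. Because the wild-type cells differ from the Cd4 sgRNA cells in the vectors, the activator, the sgRNA and the sort together, these cannot be told apart in the comparison with wild type. The study describes the 2 samples of a group as independent replicates of a cell line, so p-values measure the spread between such cultures. That spread was estimated over all 6 libraries, and the control sgRNA pair differed more than either pair compared here.

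TET enzymes oxidise methylated cytosine, the first step in removing the methyl mark from CpG sites, and p65 and HSF1 supply transactivation domains. CD4 is a coreceptor of helper T cells and is silent in B cells, where its promoter is methylated. B cells are known by the antigen receptor and its partners CD79A and CD79B, by transcription factors such as PAX5 and EBF1, and by presentation of peptides on MHC class II. Genes of the germline and of early development are classic examples of genes held silent by promoter methylation in somatic cells.

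The promoters of 4 genes that went from at most a few CPM in wild type to a clear signal, and of Rag1, which did the reverse, are shown because the recruited domain acts on CpG sites. The windows come from RefSeq on GRCm38.p6 and run 5′ to 3′ from 250 bases before to 50 bases after the annotated start. Capitals mark CpG.
Gpat2 promoter (chr2:127424949-127425248, plus strand): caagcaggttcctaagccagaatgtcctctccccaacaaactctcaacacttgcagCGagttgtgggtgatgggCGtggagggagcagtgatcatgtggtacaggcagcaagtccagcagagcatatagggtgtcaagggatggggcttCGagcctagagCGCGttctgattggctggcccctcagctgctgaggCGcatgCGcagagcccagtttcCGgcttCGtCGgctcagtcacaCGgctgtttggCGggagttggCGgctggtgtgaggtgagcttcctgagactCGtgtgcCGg
Tex101 promoter (chr7:24672001-24672300, minus strand): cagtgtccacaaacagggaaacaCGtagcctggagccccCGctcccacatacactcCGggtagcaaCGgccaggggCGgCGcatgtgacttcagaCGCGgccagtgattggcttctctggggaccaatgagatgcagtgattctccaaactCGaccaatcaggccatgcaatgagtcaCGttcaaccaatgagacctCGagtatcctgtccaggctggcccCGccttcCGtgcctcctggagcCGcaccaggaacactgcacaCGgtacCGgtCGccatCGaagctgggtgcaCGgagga
Tuba3a promoter (chr6:125286032-125286331, minus strand): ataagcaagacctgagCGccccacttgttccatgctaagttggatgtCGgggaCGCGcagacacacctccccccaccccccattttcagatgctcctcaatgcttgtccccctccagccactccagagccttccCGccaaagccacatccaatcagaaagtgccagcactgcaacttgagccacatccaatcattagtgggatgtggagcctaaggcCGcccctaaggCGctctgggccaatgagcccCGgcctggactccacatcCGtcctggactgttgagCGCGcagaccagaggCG
A4galt promoter (chr15:83251680-83251979, minus strand): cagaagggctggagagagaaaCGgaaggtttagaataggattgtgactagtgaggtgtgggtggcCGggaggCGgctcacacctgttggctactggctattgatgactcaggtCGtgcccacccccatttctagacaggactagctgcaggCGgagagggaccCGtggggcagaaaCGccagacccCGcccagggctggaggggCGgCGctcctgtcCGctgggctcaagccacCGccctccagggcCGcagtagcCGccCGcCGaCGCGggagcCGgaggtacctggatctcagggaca
Rag1 promoter (chr2:101649483-101649782, minus strand): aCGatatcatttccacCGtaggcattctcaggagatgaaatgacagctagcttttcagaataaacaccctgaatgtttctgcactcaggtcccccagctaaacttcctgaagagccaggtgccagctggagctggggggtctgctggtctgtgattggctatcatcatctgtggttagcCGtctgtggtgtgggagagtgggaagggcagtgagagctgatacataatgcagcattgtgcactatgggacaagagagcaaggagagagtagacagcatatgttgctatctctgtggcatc
The Gpat2 window holds 15 CpG sites, the Tex101 window 19, the Tuba3a window 12, the A4galt window 19 and the Rag1 window 3. Over all 32851 windows in the table, the median number of CpG sites was 7 and 94.6% of windows held at least 1 (the motif CG reads the same on both strands). The median was 22 over the tested genes that had a window, which are 78.3% of them, taking each gene's window with the most sites. The 4 windows of genes that rose all lie below it, but they were picked as examples and do not stand for all genes that rose. Windows with at least as many sites as Gpat2 made up 34.6% of all windows, and those with at least as many as Rag1 made up 76.7%. These counts describe the sequence, and methylation was not analysed here.

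Total counts per library were 49778949 and 23194920 in wild type, 35316997 and 48466039 in Cd4 sgRNA cells, and 121623410 and 92285875 in control sgRNA cells. Over the 12391 genes tested, the replicates of wild type differed by a median of 0.0808 on the log2 scale and those of Cd4 sgRNA cells by 0.0823, against 0.256 for the control sgRNA pair. A wild-type and a Cd4 sgRNA library differed by a median of 0.283 to 0.303. All 8 defining B cell markers were above 10 CPM in all 4 libraries. Their summed level was 4177 and 4207 CPM in wild type and 2363 and 2303 CPM in Cd4 sgRNA cells. Most of the sum was Pou2af1, with 122490 and 58496 counts in wild type and 45400 and 62406 in Cd4 sgRNA cells. The markers did not all fall alike, and Pax5 and Ebf1 did not pass the test used below.

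The comparison of Cd4 sgRNA cells with wild type asks how the transcriptome of the line with an activated gene differs from that of the parent line. Of 12391 genes tested, 1408 were higher and 1420 lower in Cd4 sgRNA cells at an adjusted p of 0.05 (edgeR quasi-likelihood test, Benjamini-Hochberg), which is 22.8% of genes in all, 11.4% higher and 11.5% lower. The median change was 0.68 among the genes that rose and -0.73 among those that fell, on the log2 scale, and 464 genes (3.74%) rose and 472 (3.81%) fell by at least 1. CPM did not overlap between the 2 groups for any of the 2828 genes called, and it did not overlap for 40.1% of all genes in the higher and 39.6% in the lower direction. The size of these counts rested on the libraries fitted together. The 4 libraries alone gave 3774 higher and 3679 lower genes of 12016. Leaving out control sgRNA library 1 or 2 gave 4138 and 3862 higher genes. Leaving out Cd4 sgRNA library 1 or 2 gave 166 and 176 higher genes and 104 and 77 lower genes, and leaving out wild-type library 1 or 2 gave 134 and 200 higher genes and 82 and 139 lower genes.

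**Figure D1:**
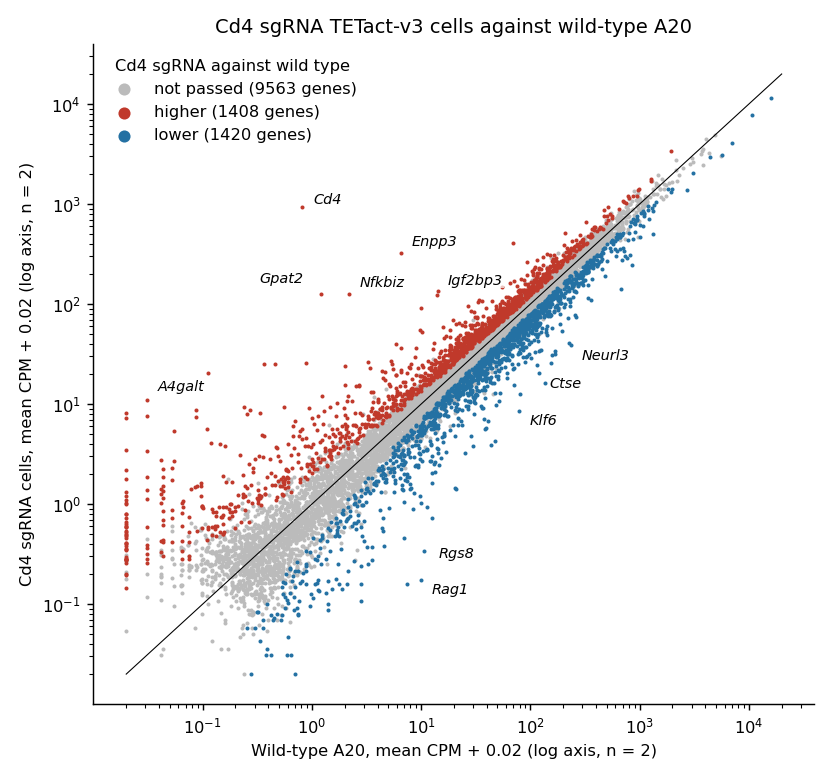
Mean CPM of each tested gene in wild-type A20 (x axis) and in Cd4 sgRNA cells (y axis), both with 0.02 added and on log axes, n = 2 a group. Red points are the 1408 genes higher and blue points the 1420 lower at an adjusted p of 0.05, and Cd4 lies farther above the diagonal than any other gene at its level.

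Cd4 itself, the targeted gene (chr6:124864693-124888247), went from a trace to a highly expressed gene. Counts were 37 and 17 in wild type and 30959 and 40422 in Cd4 sgRNA cells, or 0.799 and 0.797 CPM against 946 and 911 CPM. In bulk RNA, fewer expressing cells and less RNA per cell cannot be told apart. The 2 groups lay far apart, and the control sgRNA libraries were at 1.15 and 1.56 CPM, which is higher than wild type by 0.74 on the log2 scale (edgeR adjusted p = 0.043). The log2 fold change was 10.18 (SE 0.20, edgeR adjusted p = 1.28e-05), a 1160-fold rise, and the contrast with control sgRNA cells was 9.44 (edgeR adjusted p = 1.58e-05). Of all genes tested, 2 were higher and 6 lower in that contrast at an adjusted p of 0.05, and the other higher gene was Slc2a6 (chr2:27021363-27028000), which encodes a transporter of the GLUT family and was singled out after its values were seen. Slc2a6 was at 22.8 and 23.0 CPM in wild type, 49.6 and 49.2 in Cd4 sgRNA cells, and 24.0 and 20.2 in control sgRNA cells. The rise against wild type was 1.11 on the log2 scale (SE 0.11, edgeR adjusted p = 0.00264), and against control sgRNA cells it was 1.16 (edgeR adjusted p = 0.0433). With voomLmFit, the study reported no gene other than Cd4 as significantly higher than in control sgRNA cells.

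Few other genes of the T cell lineage were detected. Of 35 listed, 24 never exceeded 9 counts in any of the 4 libraries compared and went untested. Of the 11 tested, 2 rose and 1 fell, beside 22.8% called of all genes. Cd5, a surface receptor also found on some B cells, rose from 0.263 to 1.01 CPM (log2 fold change 2.09, SE 0.56). Runx3, a transcription factor of CD8 T cells that B cells also express, rose from 68.6 to 108 CPM (0.65, SE 0.13), and Cd2, an adhesion receptor, fell from 8.62 to 2.91 CPM (-1.57, SE 0.30). Cd3e, a chain of the T cell receptor complex, had 0 counts in all 6 libraries.

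The genes around Cd4 changed about as often as genes elsewhere. Within 500 kb, 38 of 53 genes were tested, 5 rose and 4 fell, which is 23.7% against 22.8% of all genes. The nearest tested gene, Gpr162, an orphan receptor gene 0.498 kb from Cd4 (chr6:124858444-124864195), had 2 and 1 counts in wild type and 23 and 40 in Cd4 sgRNA cells. Its ratio was 18.4 with an exact 95% counting interval of 6.02 to 91.7 (edgeR adjusted p = 0.0285). In control sgRNA cells it lay at 0.216 and 0.781 CPM, and its contrast between Cd4 and control sgRNA cells had an adjusted p of 0.452 (edgeR). The next neighbours did not pass, with log2 fold changes of -0.74 (SE 0.41) for Ptms, -0.28 (SE 0.09) for Cdca3 and 0.28 (SE 0.10) for Usp5. The other genes past the threshold in the window were Ptpn6, Emg1, Tuba3a and Clstn3, which rose, and Grcc10, Ing4, Lpar5 and Vamp1, which fell. Lpar5, a receptor for lysophosphatidic acid, fell from 7.40 and 6.56 CPM to 1.19 and 0.879 CPM.

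**Figure D2:**
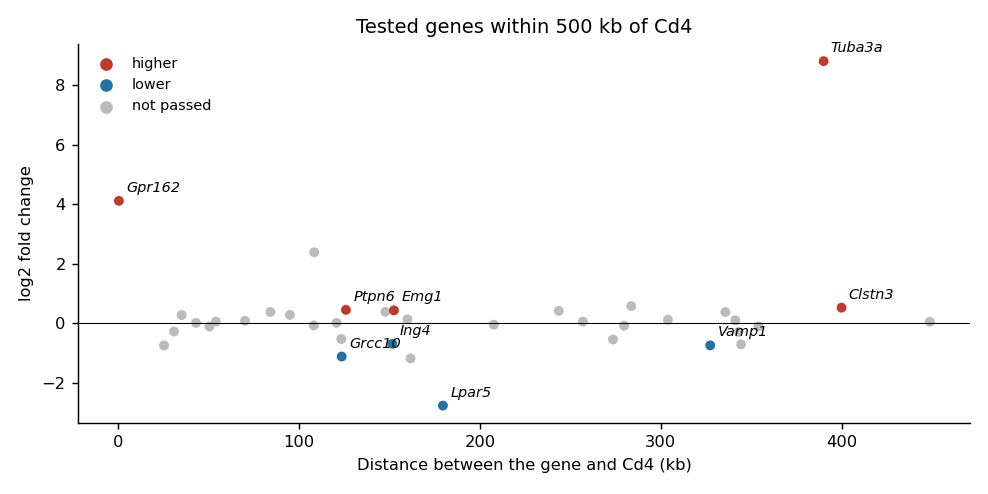
Log2 fold change of the 38 tested genes within 500 kb of Cd4 against their distance from Cd4 in kb, with genes past the threshold coloured and named. Most genes sit near 0, with Gpr162 beside Cd4 and Tuba3a at the far end of the window above the rest.

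Of the endogenous homologues of the activator's parts, Tet1 rose and the other 2 did not pass. Tet1 had 16 and 14 counts in wild type and 61 and 73 in Cd4 sgRNA cells (log2 fold change 1.89, SE 0.36, edgeR adjusted p = 0.0159). It was at 2.18 and 1.91 CPM in the control sgRNA libraries, which carry the same TET1 domain, and reads of a transgene and of the endogenous gene were not separated. Rela, which encodes p65, was at 97.8 and 96.3 CPM in wild type and 100 and 94.1 CPM in Cd4 sgRNA cells, and Hsf1 at 60.1 and 61.7 against 51.6 and 55.3 CPM. Neither passed the test (edgeR adjusted p = 0.986 and 0.178). Among 16 genes that write, read or remove DNA methylation, 2 rose and 2 fell, a share close to the 22.8% called of all genes. Dnmt3a, a de novo methyltransferase, rose from 84.5 and 81.2 to 182 and 175 CPM (1.10, SE 0.09), while Zbtb38, which binds methylated DNA, fell by 0.62 on the log2 scale.

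After Cd4, the genes with the strongest evidence of a rise came from unrelated families. Nfkbiz, an atypical IκB protein that acts in the nucleus (chr16:55811375-55838954), was at 2.16 CPM in both wild-type libraries and at 128 and 124 CPM in Cd4 sgRNA cells, a 58.3-fold rise (log2 fold change 5.87, SE 0.13, edgeR adjusted p = 1.28e-05). Gpat2, a mitochondrial acyltransferase normally seen in testis (chr2:127425154-127436093), rose from 1.12 and 1.27 to 125 and 129 CPM (6.75, SE 0.18). Both groups were tight and did not overlap. Enpp3, an ectonucleotidase and basophil marker, rose from 6.65 and 6.42 to 317 and 335 CPM (5.64, SE 0.24). Igf2bp3, a fetal RNA-binding protein whose span overlaps Malsu1 (chr6:49085218-49215469), rose from 13.9 and 14.1 to 122 CPM in both libraries (3.12, SE 0.09). Gsta4, a glutathione transferase that clears lipid aldehydes, rose from 14.3 CPM in both wild-type libraries to 140 and 130 CPM (3.23, SE 0.09). These rises were of 8.7-fold or more. Shb, an adaptor of tyrosine kinases, rose from 0.324 and 0.563 to 24.8 and 25.2 CPM, and the secreted ligand Wnt10b, with 5 counts in both wild-type libraries together, reached 8.89 and 8.39 CPM. Control sgRNA cells, compared with the same wild-type libraries, also held these genes at a raised level, at 195 and 224 CPM for Nfkbiz, 119 and 93.5 for Gpat2, 329 and 217 for Enpp3, 115 and 110 for Igf2bp3 and 143 and 150 for Gsta4. None of these 5 passed in the contrast of Cd4 and control sgRNA cells, where the smallest adjusted p was 0.0856 (edgeR), for Nfkbiz.

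Some genes appeared from near 0. Of 173 tested genes with at most 3 counts in both wild-type libraries, 103 were called higher, a share that the filter on low counts helps to set because such a gene is tested through the libraries where it is high. Ly6k, a GPI-anchored surface protein of testis and tumours, had 0 counts in both wild-type libraries and 268 and 360 in Cd4 sgRNA cells, at least 79.4-fold higher against a floor of 3 counts per wild-type library. Upk1b, a uroplakin of the bladder lining, had 0 counts in wild type and 225 and 342 in Cd4 sgRNA cells, at least 71.0-fold higher. A4galt, which makes the glycolipid Gb3 (chr15:83226722-83251729), had 1 and 0 counts in wild type and 394 and 433 in Cd4 sgRNA cells, a ratio of 726 with an exact 95% counting interval of 130 to 28700. These 3 genes read 12.0 CPM or less in the Cd4 sgRNA cells. In control sgRNA cells they were at 7.48 and 7.73 CPM for Ly6k, 3.79 and 4.19 for Upk1b and 8.61 and 10.2 for A4galt.

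Germline genes were among those that appeared. Of 34 germline genes, 17 were tested, 6 rose and 1 fell, beside 11.4% higher and 11.5% lower of all genes. Silent genes such as Tex101 and Tuba3a were tested only through the libraries where they are high. The filter on low counts thus helps to set the number that rose. The median log2 fold change was 0.07 against 0.0005 over all genes tested. Beside Gpat2, Tex101, a sperm surface protein (chr7:24668012-24672050), went from 1 count in each wild-type library to 177 and 240, a ratio of 183 with a counting interval of 50.3 to 1516. Tuba3a, a testis tubulin (chr6:125278270-125286081), went from 1 and 0 counts to 249 and 338, a ratio of 515 with a counting interval of 92.1 to 20380, and its near-identical copy Tuba3b was also called, so reads may be split between the copies. Tex14, with 3 counts in each wild-type library and 23 and 20 in Cd4 sgRNA cells, also rose. So did the synaptonemal gene Syce1, from 0 counts in both to 7 and 14. Piwil2, which serves the piRNA pathway, was the member that fell, from 14.4 ± 2.05 to 2.43 ± 0.41 CPM (SD, n = 2). The other 17 germline genes never exceeded 8 counts in any of the 4 libraries compared. The median was -0.17 over the 15 genes tested in the 4 libraries alone, and without any 1 of these libraries 3 rose and 1 fell. Of 6 tested imprinted genes, 2 fell (Peg13 and Gnas) and none rose, 33.3% beside 22.8% called of all genes. Gnas was at 846 and 790 CPM in wild type, 356 and 264 in Cd4 sgRNA cells, and 377 and 764 in control sgRNA cells.

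The genes with the strongest evidence of a fall came from several families. Ctse, an endosomal protease (chr1:131638314-131675507), fell from 123 and 116 CPM to 20.7 and 19.97 CPM (log2 fold change -2.56, SE 0.09, edgeR adjusted p = 9.42e-05). Rag1, a subunit of the V(D)J recombinase (chr2:101638252-101649532), fell from 475 and 208 counts to 5 and 7, or from 10.3 and 9.75 CPM to 0.153 and 0.158 CPM (-5.99, SE 0.25, edgeR adjusted p = 0.000209). Both Cd4 sgRNA libraries lay below both wild-type libraries. Neurl3, an E3 ligase, fell from 231 and 236 to 39.7 and 37.8 CPM, and Klf6, a zinc-finger factor, from 77.1 and 81.1 to 9.01 and 8.16 CPM. Fmnl1, a formin of the actin cytoskeleton, fell by 1.81 on the log2 scale, Chst3, a chondroitin sulfotransferase, by 1.81, and Dusp6, a phosphatase of ERK, by 1.58. Trim30a fell by 2.95, and the orphan receptor Gpr165 fell from 7.10 and 6.75 to 0.489 and 0.383 CPM. Among called genes with at least 5 CPM in both wild-type libraries, the largest falls were of Rag1, then Adm2, a peptide hormone, at -5.69 (SE 0.49), Rgs8, a regulator of G protein signalling, at -5.07 (SE 0.48), and Cpq, a carboxypeptidase, at -4.18 (SE 0.63). In control sgRNA cells, against the same wild type, Ctse lay at 20.9 and 21.5 CPM, Rag1 at 0.126 and 0.138 and Rgs8 at 1.11 and 2.49. Of the 52 tested genes with at most 3 counts in both Cd4 sgRNA libraries, 24 were called lower, and here too the filter on low counts helps to set the share.

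**Figure D3:**
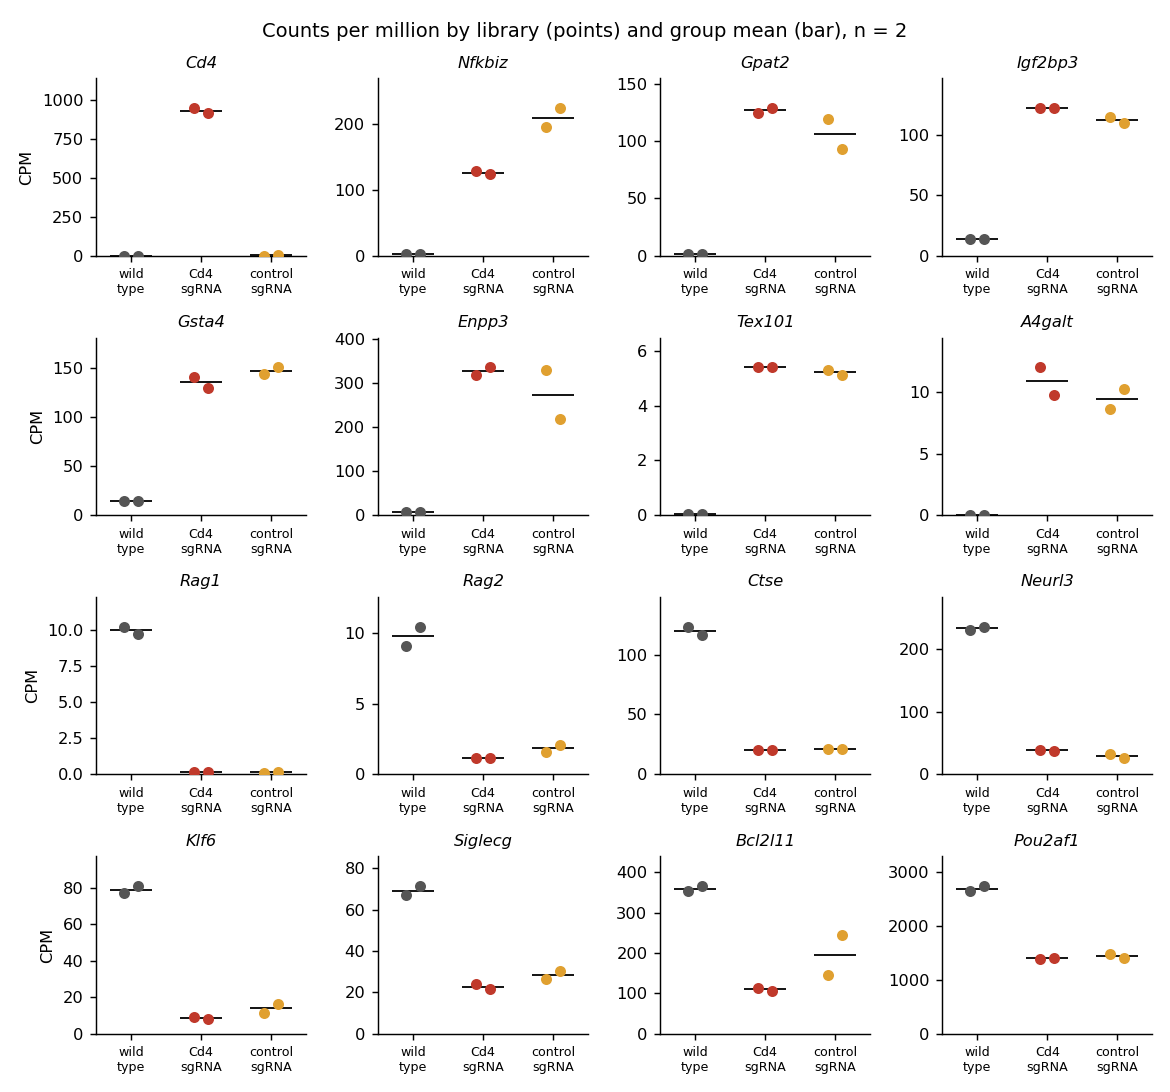
CPM of 16 genes in each library (points) with the group mean (bar), n = 2 a group, on linear axes that start at 0. The first 8 genes are higher and the last 8 lower in both Cd4 sgRNA libraries than in both wild-type libraries, and control sgRNA libraries are shown beside them.

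B cell identity genes moved mostly downward. Of 48 tested, 20 fell and 4 rose, 50.0% beside 22.8% called of all genes, with a median log2 fold change of -0.33. The 4 libraries alone called 33 lower and 7 higher, and leaving out any 1 of them left 4 lower and 1 higher. Among the antigen receptor's partners and coreceptors, 7 of 16 fell. Siglecg, an inhibitory lectin of the receptor, fell from 67.0 and 71.4 to 23.8 and 21.4 CPM (-1.61, SE 0.11). Cd79a fell from 469 and 437 to 241 and 209 CPM (-1.01, SE 0.15) and Cd79b from 649 and 668 to 367 and 345 CPM (-0.89, SE 0.17). Each of these 3 genes was lower in both Cd4 sgRNA libraries than in either wild-type library. Cd72, a coreceptor that binds CD100, rose from 20.6 and 21.3 to 60.8 and 65.1 CPM (1.59, SE 0.12).

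Transcription factors of B cells fell in part. Of 16, 7 fell and 1 rose, 50.0% beside 22.8% called of all genes. Pou2af1, a coactivator of immunoglobulin transcription, fell from 2644 and 2742 to 1387 and 1407 CPM (-0.95, SE 0.09), and Bcl6, the repressor that defines germinal centre B cells, from 334 and 346 to 162 and 150 CPM (-1.13, SE 0.11). Irf8 fell from 756 and 770 to 303 and 280 CPM, and Bach2 by 1.66 on the log2 scale. The lineage factors Pax5 (-0.12), Ebf1 (-0.32) and Tcf3 (-0.14) did not pass. In receptor signalling, 6 of 16 fell, among them Prkcb (-1.39), Blnk (-0.66) and Lyn (-0.57), and 2 rose, Ptpn6 (0.45) and Malt1 (0.60). That is also 50.0% called.

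Immunoglobulin gene segments had been left out of the test with genes of type other. In a fit that kept them, 23 of 39 segments were lower and 1 was higher, and 8 of 10 constant regions were lower. Of all 12811 genes in that fit, 1516 were lower and 1415 higher, or 22.9% called. Ighg2c, the heavy chain constant region with the most counts, fell from 3697 and 3909 to 1500 and 1337 CPM (log2 fold change -1.42, SE 0.26, edgeR adjusted p = 0.0149), and Igkc from 592 and 570 to 213 and 212 CPM (-1.45, SE 0.16). The exception was the variable segment Igkv11-125, at 3 and 1 counts in wild type and 59 and 43 in Cd4 sgRNA cells. Segments of a family share sequence, so counts may be split between them. Their names, Ighg2c among them, are those of the mm10 reference, and alleles of the BALB/C strain were not separated. Together the segments took 0.636% and 0.643% of counts in wild type, 0.253% and 0.229% in Cd4 sgRNA cells, and 0.240% and 0.399% in control sgRNA cells.

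Plasma cell genes moved in both directions, with 6 of 12 higher, 3 lower and a median of 0.85, and leaving out any 1 of the 4 libraries left 2 to 4 higher. In all 75.0% of these genes were called, beside 22.8% of all genes. The plasma cell genes that rose included Irf4, a factor of activated B cells and plasma cells (33.4 and 34.6 to 115 and 104 CPM). They also included the endoplasmic reticulum genes Derl3 (15.8 and 16.1 to 58.3 and 60.3 CPM) and Edem1, the factor Creb3l2, and the surface proteoglycan Sdc1 (16.2 and 16.7 to 30.8 and 31.7 CPM). Xbp1, which drives the secretory programme, fell from 327 in both libraries to 226 and 235 CPM (-0.50, SE 0.09), and Mzb1 and Slamf7 also fell. Prdm1, the master factor of plasma cells, was at 4.06 and 3.75 CPM in wild type and 8.61 and 7.87 in Cd4 sgRNA cells and did not pass (edgeR adjusted p = 0.217). The 4 plasma cell markers Sdc1, Prdm1, Jchain and Tnfrsf17 summed to 949 and 920 CPM of total counts in wild type. Their sum was 678 and 634 in Cd4 sgRNA cells and 679 and 972 in control sgRNA cells. Most of it was Jchain, with 46318 and 20894 counts in wild type and 22660 and 28958 in Cd4 sgRNA cells. Tnfrsf17 had 0 counts in all 4 libraries.

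Both recombinase genes fell. Of 19 tested genes of V(D)J recombination and diversification, 6 rose and 3 fell, 47.4% beside 22.8% called of all genes. The recombinase partner Rag2, whose span overlaps Iftap, fell from 9.07 and 10.5 to 1.19 CPM in both libraries (-3.03, SE 0.23). Hnrnpll, a splicing regulator of plasma cells and activated T cells, rose from 3.22 to 26.4 CPM (3.05, SE 0.15), and Prkdc, the kinase of end joining, from 21.4 and 20.3 to 45.3 and 43.5 CPM (1.09, SE 0.11).

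Genes of MHC class II presentation were on the lower side in Cd4 sgRNA cells. Of 13 tested, 7 fell and none rose, 53.8% beside 11.5% called lower of all genes. All 13 had a negative log2 fold change, and the median was -0.56. H2-Aa, the alpha chain of I-A, fell from 1305 and 1362 to 887 and 835 CPM (-0.63, SE 0.11, edgeR adjusted p = 0.0146). The peptide-exchange chains H2-DMb2 and H2-DMb1, near-identical copies, fell by 0.61 and 0.60 on the log2 scale. Cd74, the invariant chain, was at 5485 and 5547 CPM in wild type and 3284 and 2786 in Cd4 sgRNA cells but did not pass (edgeR adjusted p = 0.0532), nor did the transactivator Ciita (-0.24). Of 13 class I genes, 3 fell, namely B2m (-0.75), H2-D1 (-0.67) and H2-K1 (-0.58), and Psmb8 rose (0.39). In all 30.8% of class I genes were called, beside 22.8% of all genes. Of 6 costimulatory genes, Cd86 rose from 7.64 and 6.61 to 14.7 and 15.8 CPM and Cd274, which encodes PD-L1, fell by 1.35 on the log2 scale. The 4 libraries alone called 12 class II genes lower, and leaving out any 1 of them left 1.

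Genes of the BCL2 family fell on both sides of the balance of survival and death. Of 14 tested, 10 fell and 1 rose, 78.6% beside 22.8% called of all genes, and the median was -0.75. Among the death-promoting BH3-only genes, Bcl2l11, which encodes BIM, fell from 353 and 366 to 114 and 106 CPM (-1.71, SE 0.23, edgeR adjusted p = 0.00666). It lay at 146 and 245 CPM in control sgRNA cells. Bbc3, which encodes PUMA, fell from 50.9 and 52.4 to 12.9 and 8.57 CPM (-2.27, SE 0.41, edgeR adjusted p = 0.0146). Bid, Bad and Pmaip1 also fell. Among the protective members, Bcl2l1 fell from 616 and 628 to 350 and 324 CPM, Mcl1 from 296 and 313 to 196 and 199 CPM, and the copies Bcl2a1a, Bcl2a1b and Bcl2a1d by between 1.67 and 2.67 on the log2 scale, with reads that may be split between them. Bcl2 rose from 1.17 and 1.55 to 2.38 and 2.48 CPM (0.87, SE 0.25). Of 14 death receptors, caspases and p53 targets, 1 fell and none rose. The 4 libraries alone called 12 BCL2 genes lower, and leaving out any 1 of them left 2 or fewer (0 without Cd4 sgRNA library 2).

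Genes of DNA replication and mitosis were mostly higher. Of 26 tested, 13 rose and 1 fell, 53.8% beside 22.8% called of all genes. A positive log2 fold change was seen in 25, and the median was 0.41. Top2a, a topoisomerase of dividing cells, rose from 543 and 539 to 832 and 758 CPM (0.56, SE 0.09). Rrm2, a subunit of ribonucleotide reductase, rose from 121 and 122 to 226 and 225 CPM (0.89, SE 0.17) and Mki67 from 1325 and 1202 to 1772 and 1632 CPM (0.43, SE 0.12). The centromere histone Cenpa was the exception (-0.51). Of 24 cyclins, kinases and inhibitors, 6 rose and 3 fell (37.5% called). Ccne1 rose from 21.3 to 40.5 CPM, and Ccnd2, with 0 and 1 counts in wild type, reached 49 and 52 counts in Cd4 sgRNA cells. Myc fell from 183 and 189 to 79.0 and 81.8 CPM (-1.21, SE 0.15, edgeR adjusted p = 0.00517), with 92.8 and 67.9 CPM in control sgRNA cells. The 4 libraries alone called 23 replication and mitosis genes higher, whereas leaving out any 1 of them left 0 called.

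**Figure D4:**
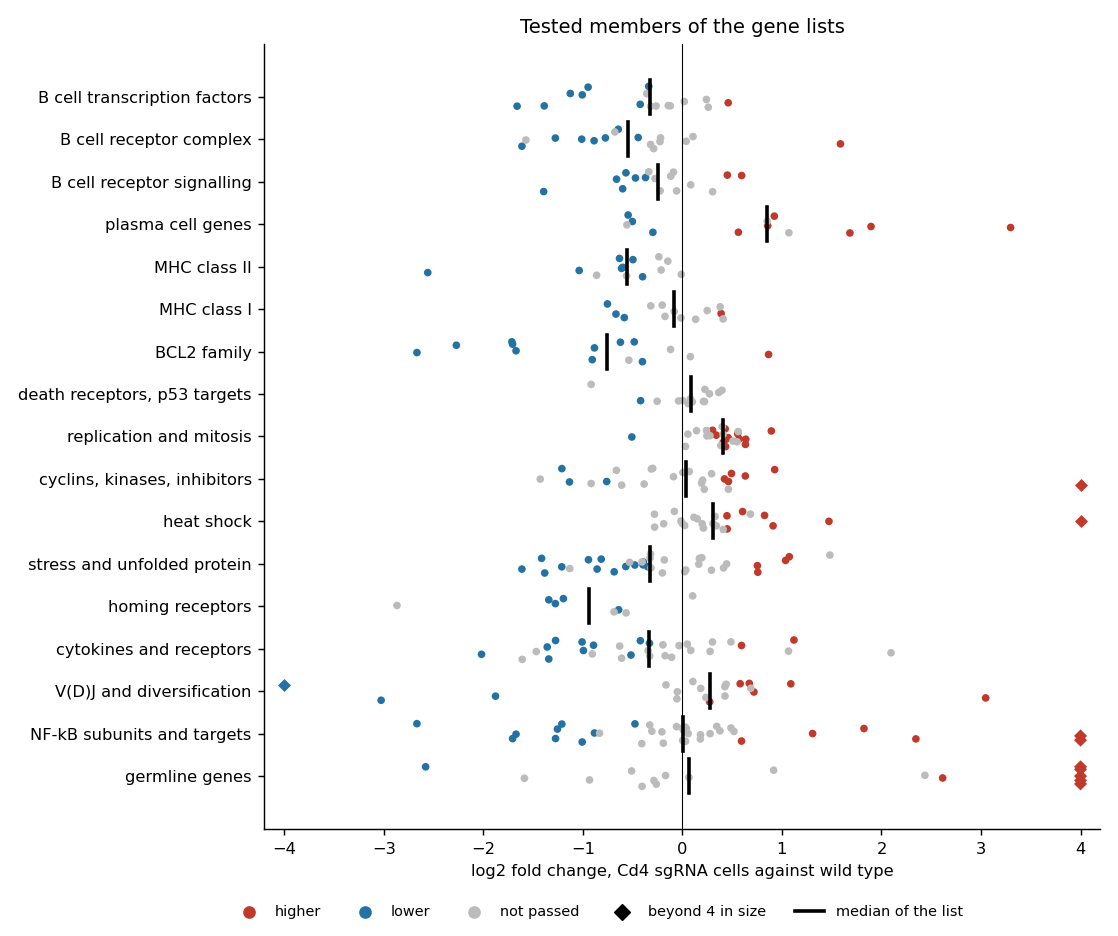
Log2 fold change of each tested member of 17 gene lists or parts of lists, Cd4 sgRNA cells against wild type, with members past the threshold in red (higher) or blue (lower), values beyond 4 drawn as diamonds at the edge, and the list's median as a black bar. BCL2 family, MHC class II and homing receptor medians lie below 0, and those of replication and mitosis and of plasma cell genes above it.

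NF-κB genes were divided by role for description, and a difference between roles was not tested. None of the 5 subunits rose and Nfkb2 fell (-0.48). Of 9 inhibitors, 3 rose, the nuclear proteins Nfkbiz, Nfkbid (27.1 to 96.1 CPM) and Bcl3 (1.31 on the log2 scale), and none fell. Of 22 targets, 8 fell and 3 rose, 50.0% beside 22.8% called of all genes. Vcam1, an adhesion molecule, had 4 and 1 counts in wild type and 213 and 370 in Cd4 sgRNA cells, a ratio of 102 with a counting interval of 43.6 to 316. It lay at 1.37 and 1.85 CPM in control sgRNA cells against 6.51 and 8.34 in Cd4 sgRNA cells, a contrast of 2.21 (edgeR adjusted p = 0.0634). Zc3h12a, an RNase that degrades inflammatory transcripts, rose from 10.9 and 9.56 to 53.9 and 50.5 CPM, while Ltb, Cd83 and Myc were among those that fell.

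Of 23 heat shock genes tested, 7 rose and none fell, beside 11.4% higher and 11.5% lower of all genes, and the median was 0.31, with 16 higher in the 4 libraries alone and at most 2 without any 1 of them. Dnajb4, a cochaperone, rose from 7.15 and 7.78 to 20.04 and 21.3 CPM (1.47, SE 0.13), Bag3 from 37.7 and 43.9 to 70.8 and 73.5 CPM, and Hsf2 and Fkbp4 by 0.91 and 0.45 on the log2 scale. Genes of the integrated stress and unfolded protein responses went mostly the other way, with 13 of 34 lower and 4 higher and a median of -0.32 (20 lower in the 4 libraries alone, 3 or 4 without any 1 of them). Atf5, whose span overlaps Nup62, fell from 91.0 to 29.8 CPM (-1.61, SE 0.09). Atf4, the factor that drives the amino acid response, fell from 126 and 121 to 69.8 and 58.8 CPM, and its targets Cth (-1.38), Chac1 (-1.41) and Psat1 (-0.86) were lower too. The 4 that rose were Slc7a11, a cystine transporter, and the endoplasmic reticulum genes Sdf2l1, Creld2 and Pdia4.

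Receptors that position B cells in lymphoid tissue fell in part, 50.0% of those tested beside 11.5% called lower of all genes. Of 8 homing receptors, 4 fell and none rose, with a median of -0.94, and leaving out any 1 of the 4 libraries left at most 1 called lower. Cxcr4 fell from 117 and 111 to 51.1 and 43.3 CPM (-1.28, SE 0.18) and S1pr2, which holds cells in germinal centres, from 87.7 and 80.8 to 38.7 and 34.9 CPM (-1.20, SE 0.15). For Cxcr4 the control sgRNA libraries lay at 71.2 and 100 CPM. Over the whole adhesion and homing list, 11 of 30 fell and 3 rose (Vcam1, Mcam and Itgae), 46.7% beside 22.8% called of all genes. Of 30 cytokines and receptors, 10 fell and 2 rose (40.0% called). Ltb fell from 726 and 751 to 303 and 308 CPM (-1.27, SE 0.10), Il6ra by 1.36 and Tgfbr1 by 0.99 on the log2 scale.

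Of 21 glycolysis genes, 5 fell and 1 rose, 28.6% beside 22.8% called of all genes. Pgk1 fell from 693 and 685 to 298 and 255 CPM (-1.32, SE 0.23) and Pkm from 5528 and 5731 to 3358 and 2768 CPM (-0.88, SE 0.20), with control sgRNA libraries at 400 and 662 and at 3699 and 5457 CPM. Of 18 hypoxia targets outside glycolysis, 2 fell and 1 rose, and of 7 oxygen-sensing genes 2 fell and 1 rose, together a share close to the 22.8% called of all genes. P4ha2, a collagen hydroxylase, had 44 counts over both wild-type libraries and none in the Cd4 sgRNA libraries, at least 8.51-fold lower. Bhlhe40 rose by 1.12, from 14.9 and 14.6 to 33.0 and 31.2 CPM, with 76.3 and 116 CPM in control sgRNA cells. Of 30 cholesterol genes, 8 fell and 2 rose (33.3% called), among them the exporter Abca1 (-1.27) and the factor Srebf1 (0.68). Of 25 glutathione and NRF2 genes, 7 rose and 4 fell (44.0% called). Gsta4 was among those that rose, and Txn1 and Prdx1 fell by 0.71 and 0.44 on the log2 scale. Of 33 genes of the interferon response and of RNA and DNA sensing, 3 rose and 5 fell, also close to that share. Bst2, which tethers virions, rose from 37.0 and 34.6 to 108 and 106 CPM (1.58, SE 0.11), and Cgas, a DNA sensor, fell from 2.74 and 2.86 to 0.611 and 0.541 CPM (-2.28, SE 0.26).

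Most respiratory chain genes encoded in the mitochondria rose. Mitochondrial transcripts had also been left out of the main test. In the fit that kept them, 12 of the 13 mitochondrial subunit genes were higher and none lower, with a median log2 fold change of 1.503. ND4L was highest at 2.09 (SE 0.17, edgeR adjusted p = 0.00126), and COX3 did not pass (0.62, SE 0.22). In the same fit, 9 of 36 nuclear subunits were lower and none higher, with a median of -0.10. In the main test, 11.5% of all genes were called lower and 11.4% higher. The share of nuclear subunits called in either direction was close to the 22.8% of all genes, but every call was lower. The largest fall was of Cox6c at -1.17 (in the main test, 47.5 to 21.1 CPM). Mitochondrial transcripts took 2.65% and 2.69% of counts in wild type, 5.96% and 6.90% in Cd4 sgRNA cells, and 6.63% and 11.5% in control sgRNA cells.

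**Figure D5:**
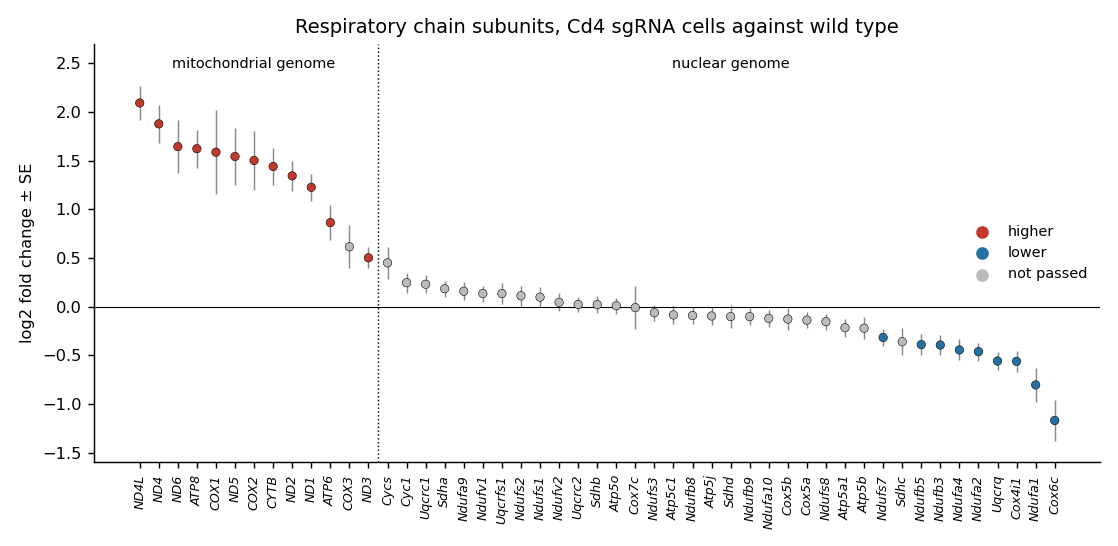
Log2 fold change with its SE for 13 mitochondrial and 36 nuclear respiratory chain genes, Cd4 sgRNA cells against wild type, in the fit without annotation filters, with genes past the threshold coloured. All mitochondrial genes are above 0 and 12 are called higher, whereas 9 nuclear genes are called lower.

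Markers of other cells were low. Of 8 T cell markers, 6 had at most 3 counts in all 4 libraries, and their summed level was 0.683 and 0.905 CPM in wild type and 1.84 and 1.65 CPM in Cd4 sgRNA cells. Summed myeloid markers were at 3.78 and 3.84 against 2.04 and 2.62 CPM, and of 7 tested genes on the longer myeloid list none passed. Erythroid markers were at 20.7 and 20.2 against 1.87 and 2.21 CPM. The difference was nearly all Hbb-bs, an adult beta-globin gene with a near-identical copy, which fell from 974 and 430 counts to 43 and 69 (-3.83, SE 0.44), and Gata1, the defining erythroid factor, had 0 counts in both wild-type libraries. Neither of 2 tested fibroblast and epithelial markers passed.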

How the data were processed

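RNA of A20 cells was sequenced as paired-end TruSeq libraries. The authors mapped the reads to the mm10 genome (Rsubread), then ran featureCounts on Entrez genes, and the deposited counts are raw whole numbers; strand use and the treatment of shared reads are not given in the sources used here. Of 27179 identifiers, 25275 matched a RefSeq symbol (GRCm38.p6). Genes without a symbol, mitochondrial and ribosomal RNA genes and immunoglobulin and T cell receptor segments were left out, and filterByExpr left 12391 genes, with 85.6% to 94.3% of each library's counts. The table of the whole series repeats the sample counts and was not used.

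Libraries were scaled by TMM and tested with edgeR 4.0.16 (quasi-likelihood, robust, two-sided, Benjamini-Hochberg at 0.05) in R 4.3.3, with a term per group over all 6 libraries. SE is the log2 fold change over the root of the F statistic. CPM uses TMM-scaled totals. Alternatives were limma 3.58.1 (voomLmFit, the study's test), DESeq2 1.42.0, other scalings and filters, a replicate block and leaving out each library, and the fit was tested on simulated data. Bounds used 3 counts per library, and intervals cover counting error only.

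The members, gene lists and the rule for naming genes were chosen with earlier results of these data known. The rule took the 10 smallest p-values and 5 largest changes per direction (at least 5 CPM in both libraries of the higher group), the activator's homologues, up to 4 genes per list and the neighbours of Cd4, and other list members named in the text were picked after their values were seen. Values of some genes of the rule and lists are not reported here. With genes at 0 in a group set to their bound, 0 of 24 list medians changed. Spans of 49 of 137 named genes overlap another gene. Promoter windows matched 78.3% of tested genes, under the 80% set, so a comparison of CpG counts between genes that rose and fell was void and is not reported.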

Additional observations from a re-analysis of the deposited data

Results flagged for a closer look

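Cd4 and Slc2a6 differed between the Cd4 sgRNA and control sgRNA cells in their change against wild type, by a test of the difference itself. The difference was 9.436 for Cd4 (edgeR adjusted p = 1.58e-05) and 1.158 for Slc2a6 (edgeR adjusted p = 0.0433) on the log2 scale. The study, with voomLmFit, reported only Cd4 as significantly higher in this contrast, which was not refitted under the alternatives. Both Cd4 sgRNA libraries were above both control sgRNA libraries for each gene.

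Mitochondrial transcripts, which the main test left out, took at least 5.96% of counts in each Cd4 sgRNA library and at most 2.69% in wild type.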

How the results depend on the processing

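The log2 fold change of Cd4 stayed past the threshold under all 16 alternatives, between 10.15 and 10.22. The counts of 1408 higher and 1420 lower genes moved by less than 1.5 times with voomLmFit (1014 and 1076), DESeq2 (1727 and 1797), RLE size factors (1390 and 1454), library size only (1677 and 1271), no expression filter (1572 and 1582), a CPM of 1 in 2 libraries (1322 and 1399), no annotation filter (1415 and 1516) and the replicate block (1061 and 1075). They moved further with the 2 groups alone (3774 and 3679) and with a test against a log2 fold change of 1 (139 and 74). Leaving out 1 library gave 134 to 4138 higher and 77 to 3712 lower genes, the high ends without control sgRNA libraries 1 and 2 and the low ends without wild-type library 1 and Cd4 sgRNA library 2. These fits also differ in the number of samples, and a group left with 1 library is assumed to vary like the others. The replicate numbers were not taken to pair the samples, since same-numbered deviations correlated at 0.043, under 0.1. None of the 120 named genes past the threshold changed sign under any alternative, which their non-overlapping CPM made nearly certain. Without Cd4 sgRNA library 1 or 2, 66 and 70 of 119 such genes other than Cd4 lost their call, and without wild-type library 1 or 2, 71 and 59 did. Rela, near 0 in the main test, turned to -0.0431 without Cd4 sgRNA library 1 and was 0.0517 without library 2. The CpG alternative was not run because the check was void. The shallowest library, with 23194920 counts, sets a floor of 0.141 CPM for 3 counts, and levels below it rest on fewer than 3 counts in that library.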

Other observations

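Along the genome, the lowest median change among 1149 overlapping runs of 50 neighbouring tested genes lay on chromosome 17 at chr17:34305867-35384674, from H2-Eb1 to H2-Q4 in the MHC region. Its median log2 fold change was -0.40, with 15 genes lower and 2 higher, and the median of control sgRNA cells against the same wild type was -0.17 there. Runs between the 5th and 95th percentile had medians of -0.15 to 0.15. The highest run median, 0.29, was shared by 2 runs on chromosome X, from Acsl4 to Ctps2 with 12 genes higher and 2 lower, and from Kdm5c to Mid1 with 11 higher and 5 lower. Neighbouring runs share genes. Whole chromosomes had medians between -0.07 (chromosome 17) and 0.10 (chromosome X), leaving out Y with 1 tested gene, and 14 of the 20 moved by more than the spread between the Cd4 sgRNA replicates when limited to genes of at least 10 CPM.

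Identifiers without a RefSeq symbol were outside the main test. In the fit without annotation filters, 378 of them were tested, 16 were higher and 29 lower in Cd4 sgRNA cells, or 11.9% called beside 22.9% of all genes in that fit.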
